A study of Sus scrofa with 150 samples.

Results

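Solute carriers are the membrane proteins that move sugars, amino acids, bile salts, metals, vitamins, nucleotides and other small molecules across the plasma membrane and the membranes of mitochondria, the endoplasmic reticulum, the Golgi apparatus and lysosomes. They were taken as the probe sets whose array annotation gives a symbol beginning with SLC and a digit. This rule found 181 of the 24123 probe sets of the table. Of these, 5 carried several symbols and were not named, and the others had a single symbol and stood for 120 genes. All of the 120 are carriers except 3 proteins named after a carrier: SLC2A4RG, a transcriptional regulator, and the scaffold proteins SLC9A3R1 and SLC9A3R2. For 39 genes the array held several probe sets, and a gene was then described by its brightest unless stated otherwise.

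The data came from livers of 150 commercial pigs of the cross Pix(DLxDE), taken at slaughter at an average final weight of 110 kg, 1 Affymetrix Porcine Genome Array each, with no treatment and no control group. The labels give no sex, age or kinship for any animal. They give for each pig a fat area, measured beside the long back muscle and averaging 15.2 cm2 (SD 3.25, n = 150), and a drip loss, the water a piece of that muscle loses, averaging 5.54% (SD 2.12, n = 150). Each array is a separate pig, so a spread over arrays holds differences between animals and technical error together.

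In liver, carriers serve several well known tasks. Hepatocytes take up bile salts from portal blood, release glucose made from glycogen and amino acids, feed fatty acids into mitochondria through the carnitine system, export citrate for lipid synthesis, and store copper, iron and zinc. The families are named by shared sequence rather than by a shared cargo, so 1 family can serve several of these tasks.

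Signals are given on the log2 scale, as deposited. Every array had its lowest value at 4.09, and 2.75% of all values lay at that floor. Array medians ran from 5.79 to 6.09, and 13 of the 150 arrays stood apart from the rest by a low median correlation with the others. The averaged signal of a hepatocyte list, 8 of 8 genes measured with albumin and transferrin among them, ran from 13.0 to 13.6 over pigs. With 3 of 4 genes measured each, the averages ran from 4.82 to 5.55 for skeletal muscle, 4.86 to 6.07 for adipocytes, 4.44 to 5.90 for bile duct, 5.36 to 6.76 for stellate cells, 6.04 to 8.74 for red blood cells and 7.93 to 9.20 for macrophages, and with 2 of 4 measured from 4.77 to 6.02 for exocrine pancreas. In whole liver, fewer cells of a type and less RNA per cell cannot be told apart. Probe sets differ in how strongly they bind, so a signal and its percentile among the 23999 non-control probe sets describe brightness on this array and not an amount of RNA.

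The brightest carriers were those of bile salt uptake, glucose release and mitochondrial energy exchange. In all, 79 carriers (67.5%) had a mean above 5.95, the median of all probe-set means. In the brightest 5% of all probe sets lay 8 carriers (6.84%), and 5 of those 8 belong to the mitochondrial family. Among the mitochondrial carriers, 5 of 21 reached that range.

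SLC10A1, which brings bile salts into hepatocytes with sodium, had the brightest probe set of the family. Its signal ran from 10.06 through a median of 12.42 to 13.02, with a mean of 12.36 (SD 0.364, n = 150) at the 99.2nd percentile. SLC37A4 carries glucose 6-phosphate into the endoplasmic reticulum, where the last step of glucose production takes place. It averaged 11.48 (SD 0.353, n = 150), and its second probe set averaged 11.42 and followed it over pigs with r = 0.818. SLC2A2, the glucose carrier of the hepatocyte surface, averaged 8.95 (SD 0.396, n = 150).

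The 5 bright mitochondrial carriers differed in spread. SLC25A3, which imports phosphate for ATP synthesis, ran only from 11.31 to 12.14, with an SD of 0.161. The ADP and ATP exchangers SLC25A6, SLC25A4 and SLC25A5 averaged 11.48, 11.24 and 9.70, with SDs of 0.226, 0.249 and 0.302. SLC25A1, the citrate exporter that supplies carbon for fatty acid and cholesterol synthesis, averaged 10.46 and varied more, from 9.17 to 11.52 (SD 0.401, n = 150). SLC31A1, the copper importer, completed the list at 10.07 (SD 0.355, n = 150), but its dimmer probe set ran against it (r = -0.253). The spread of SLC31A1 over pigs therefore depends on which probe set is read.

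Probe sets annotated to carriers that textbooks place in other organs were not all dark. SLC6A4, the serotonin carrier, averaged 8.15, and SLC5A1, the sodium-driven glucose carrier of the intestine, averaged 7.56. Neither gene had a second probe set, and whether these probe sets read these genes alone was not tested. At the dark end, SLC22A2, a cation carrier of kidney, averaged 4.25 and lay at the floor in 42 of 150 pigs; it was the single carrier with at least 10% of pigs at the floor. SLC25A51, the mitochondrial NAD carrier, averaged 4.38.

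**Figure D1:**
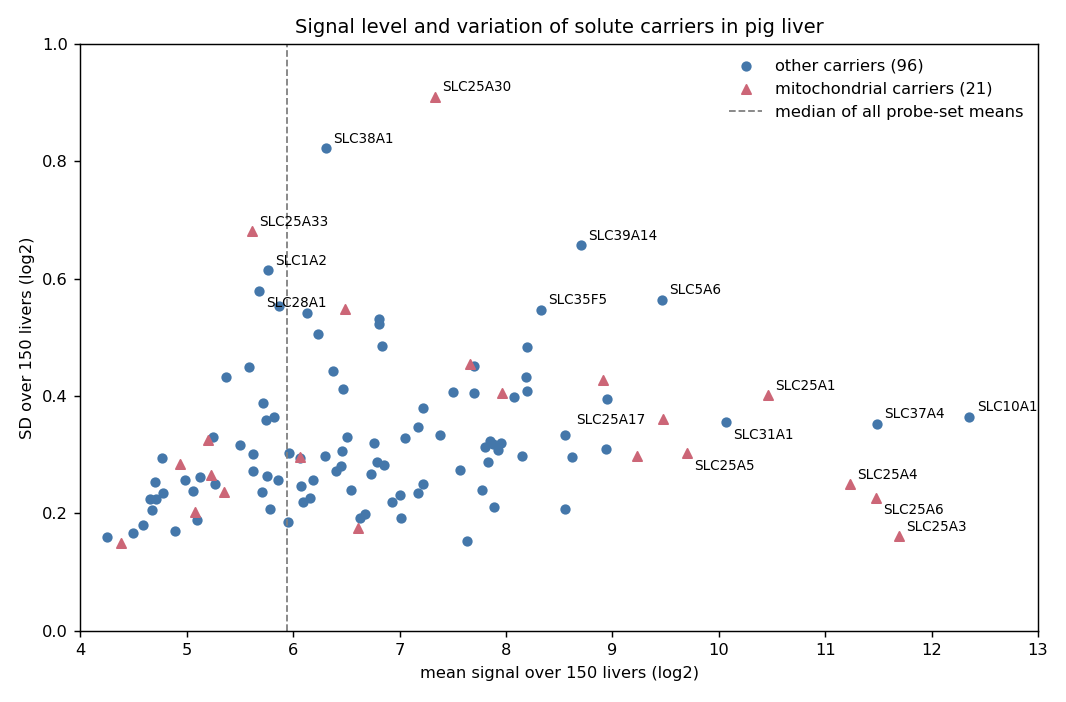
Mean signal (log2, x axis) and SD over 150 livers (log2, y axis) of the carriers, 1 point per carrier at its brightest probe set; triangles are the 21 mitochondrial carriers and the dashed line is the median of all probe-set means, 5.95. SLC10A1 lies farthest to the right at 12.36, and SLC25A30 and SLC38A1 lie highest, with SDs of 0.91 and 0.82.

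The median SD over pigs was 0.298 for carriers and 0.259 for all probe sets, and 7 carriers (5.98%) lay in the 5% of largest SD. No test was made of this difference.

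The carriers of largest spread came from several cargo classes. SLC25A30, a carrier of the inner mitochondrial membrane, ran from 5.47 through a median of 7.24 to 10.06 (SD 0.91, n = 150). The pig at the 90th percentile had 5.29 times the signal of the pig at the 10th. SLC38A1, which takes up glutamine and other neutral amino acids, ran from 4.29 through 6.21 to 9.21, with an SD of 0.82 and a ratio of 4.12 between those percentiles. Its 3 probe sets agreed well, with r between 0.792 and 0.938. SLC25A33, a pyrimidine nucleotide carrier of mitochondria, ran from 4.20 through 5.50 to 7.59 (SD 0.68, n = 150).

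SLC39A14 imports zinc, iron and manganese and is known to be induced in liver by inflammation. It ran from 6.99 through 8.61 to 10.59 (SD 0.66, n = 150), and its 2 probe sets correlated at r = 0.763. Arrays with a low median correlation to the others tended to read high for SLC39A14 (r = -0.587 with that measure), and without the 13 arrays that stand apart its SD was 0.58. SLC5A6, which carries biotin and pantothenate, combined brightness with spread: it ran from 7.90 through 9.40 to 11.07 (SD 0.56, n = 150). SLC22A5, the carnitine importer, had an SD of 0.54, with a median of 6.02, a highest value of 9.34 and a next highest of 8.13.

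The other carriers of the 15 largest SDs, each at its most variable probe set, were SLC1A2 (glutamate) at 0.61, SLC26A11 (sulfate and chloride) at 0.60, SLC28A1 (pyrimidine nucleosides) at 0.58, SLC33A1 (acetyl-CoA entry into the endoplasmic reticulum) at 0.56, SLC27A6 (fatty acids) and SLC25A36 (pyrimidine nucleotides) at 0.55, SLC35F5 at 0.55, SLC3A1 (cystine and basic amino acids) at 0.53 and SLC35A3 (UDP-N-acetylglucosamine) at 0.52. The values formed a continuous spread with a few distant pigs.

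**Figure D2:**
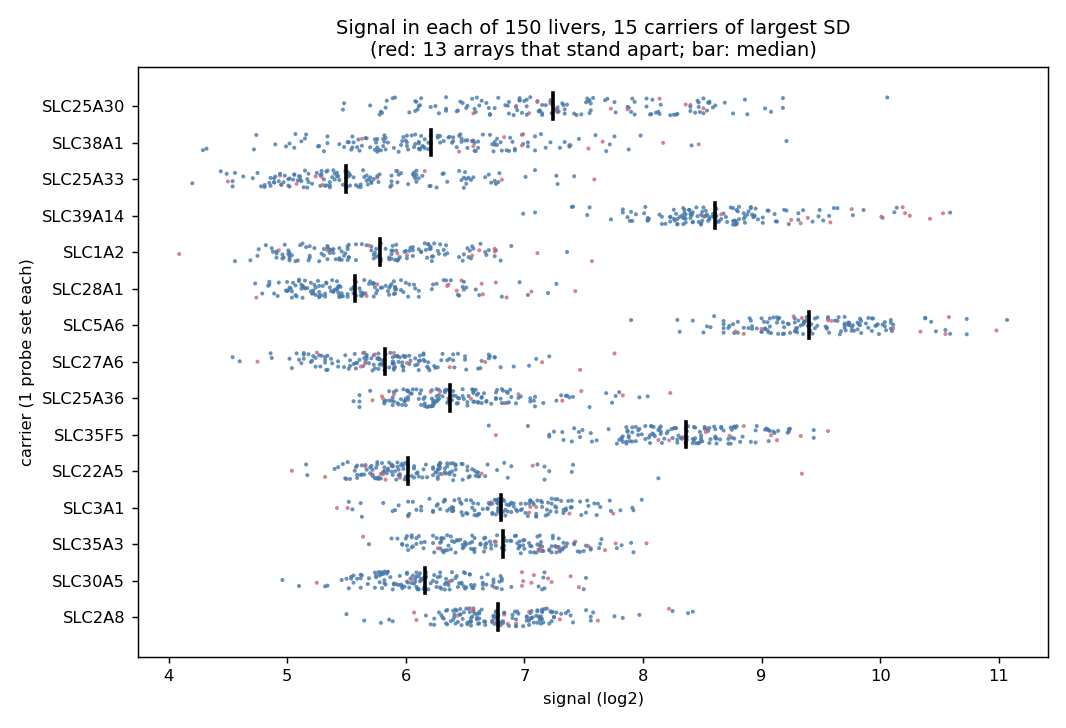
Signal (log2, x axis) in each of 150 livers for the 15 carriers of largest SD at their brightest probe set (y axis); each point is a pig, black bars are medians and red points are the 13 arrays that stand apart. SLC25A30 spreads from 5.47 to 10.06 without a gap that splits the pigs, and the highest SLC22A5 value, 9.34, belongs to an array that stands apart.

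Agreement between probe sets of a gene sets how far such a spread can be read. In the 15 genes whose probe sets all lay above the median brightness, the median r between probe sets was 0.561, with genes ranging from -0.253 to 0.912. In the 24 genes with a dimmer probe set the median was 0.092. SLC15A2, the peptide carrier, agreed best (r from 0.830 to 0.918 over 3 probe sets), followed by SLC26A11 at 0.870 and SLC35F5 with a median of 0.855. SLC31A1 at -0.253, SLC38A9 at -0.236 and SLC25A24 at -0.107 agreed least.

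No solute carrier was called for fat area. At a Benjamini-Hochberg adjusted p under 0.05 in limma, fitted over all 23999 probe sets, 0 of the member probe sets with a single symbol passed, where 0.125% of all probe sets did. At an unadjusted p under 0.05, 20 (11.4%) did, against 7.08% of all probe sets. Of these, 11 had a higher and 9 a lower signal in fatter pigs, where 3.43% and 3.65% of all probe sets did so. At an adjusted p under 0.1, the count was 2, where 0.275% of all probe sets passed. The median slope of carriers was 0.00083 log2 per SD of fat area, and that of all probe sets 0.00025.

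The lower adjusted p of the pair belonged to SLC25A33, the pyrimidine nucleotide carrier. Its signal averaged 5.41 (SD 0.618, n = 30) in the 30 pigs of largest fat area and 5.88 (SD 0.675, n = 30) in the 30 of smallest, a ratio of 0.72, and the groups overlapped widely. The slope was -0.20 log2 per SD of fat area (SE 0.053, 95% interval -0.31 to -0.10, limma adjusted p = 0.0866). Over all pigs r was -0.296 (rho = -0.304) and -0.286 without the 2 pigs farthest from the median signal. Within blocks of 100 title numbers, whose meaning is not given, it was negative in 10 of 10. This SLC25A33 probe set, with a mean of 5.62, was itself dimmer than 5.95, the median of all probe-set means. A second, dimmer still at 4.49, had a slope of 0.01 and correlated with the first at r = 0.127.

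SLC3A1 is the heavy chain that, with SLC7A9, takes up cystine and basic amino acids. It averaged 7.10 (SD 0.451, n = 30) in the fattest 30 pigs and 6.58 (SD 0.479, n = 30) in the leanest, a ratio of 1.43. The slope was 0.16 (SE 0.041, 95% interval 0.08 to 0.24, limma adjusted p = 0.0877), with r = 0.294 and rho = 0.311 over all pigs. The correlation was positive in 8 of 10 blocks. Its partner SLC7A9 had a slope of 0.01, and its own dimmer probe set 0.02.

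A Y-linked gene, EIF1AY, moved with fat area and with SLC3A1. The EIF1AY signal was split, with no pig between 4.72 and 5.64, and lay at the floor in 39 of 150 pigs. It correlated with fat area at r = 0.380 and with SLC3A1 at 0.258. With SLC25A33 it had r = -0.131, which did not pass (adjusted permutation p = 0.259). With EIF1AY in the model, the slope of SLC3A1 was 0.12 (SE 0.044, limma adjusted p = 0.374) and that of SLC25A33 was -0.20 (SE 0.057, limma adjusted p = 0.234). With 5 principal components of all probe sets in the model, the SLC25A33 slope was -0.11 (SE 0.044, limma adjusted p = 0.387).

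**Figure D3:**
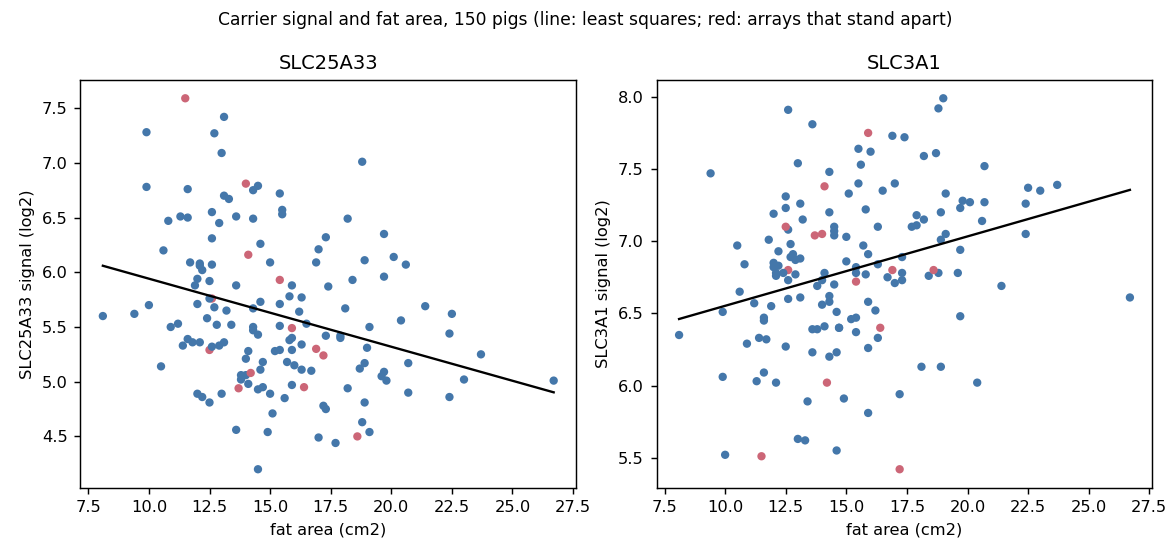
Signal (log2, y axes) of SLC25A33 and SLC3A1 against fat area (cm2, x axes) in 150 pigs, 1 point per pig with the least-squares line; red points are arrays that stand apart. The lines slope at -0.20 and 0.16 log2 per SD of fat area, and the points scatter widely about both.

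The next members by p had larger adjusted p-values. SLC11A2, the iron importer of endosomes and gut, had a slope of -0.08 (SE 0.023, limma adjusted p = 0.211). Its 4 probe sets correlated with each other at r between -0.072 and 0.309, so the values given for SLC11A2 are those of 1 probe set. SLC25A30 had the steepest negative slope of the family, -0.23, but with a wide error (SE 0.071, limma adjusted p = 0.244), and the fattest 30 pigs had 0.577 times the signal of the leanest 30. SLC25A5, an ADP and ATP exchanger, had a slope of -0.08 (limma adjusted p = 0.255), and SLC39A7, which releases zinc from the endoplasmic reticulum, had -0.07 (0.412). With positive slopes followed the regulator SLC2A4RG at 0.07 (limma adjusted p = 0.359), SLC25A37, the iron carrier of mitochondria, at 0.08 (0.449), SLC29A1, the nucleoside carrier, at 0.06 (0.600) and the scaffold SLC9A3R1 at 0.05 (0.607). By class, 6 of 21 mitochondrial carriers had a positive slope (median -0.01), as did 12 of 18 amino acid carriers (median 0.01) and 11 of 15 sugar carriers (median 0.02). Of all 23999 probe sets, 12110 had a positive slope. Carriers of a class can move together, as SLC25A30 and SLC25A33 did at r = 0.533, and the classes were not tested.

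No solute carrier was called for drip loss. By limma, 0 member probe sets passed an adjusted p under 0.05, where 0% of all probe sets did. At an unadjusted p under 0.05, 13 (7.39%) passed, against 11% of all probe sets. Of these, 3 had a higher and 10 a lower signal in pigs of higher drip loss, where 5.6% and 5.39% of all probe sets did so. The smallest adjusted p was that of a dim probe set of SLC1A1, a glutamate carrier (slope -0.07, SE 0.018, limma adjusted p = 0.307). The brightest of the 5 SLC1A1 probe sets had a slope of -0.03.

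SLC25A11, which exchanges malate for 2-oxoglutarate across the mitochondrial membrane, averaged 5.92 (SD 0.213, n = 30) in the 30 pigs of highest drip loss and 6.16 (SD 0.274, n = 30) in the 30 of lowest. Its slope was -0.08 (SE 0.023, limma adjusted p = 0.309). SLC7A9, the light chain paired with SLC3A1, had a slope of -0.11 (SE 0.034, limma adjusted p = 0.314) and correlated negatively with drip loss in 10 of 10 blocks. The scaffold SLC9A3R1 and SLC44A2, a choline carrier, had slopes of -0.06 and -0.07 (limma adjusted p = 0.368 and 0.382). On the positive side stood SLC41A1, a magnesium carrier, at 0.07 (SE 0.027, limma adjusted p = 0.330), SLC35A3 at 0.09 (0.407) and SLC15A2 at 0.08 (0.423). SLC4A4, a bicarbonate carrier, followed at 0.04 (0.479) and SLC2A4, the insulin-responsive glucose carrier, at 0.03 (0.498). SLC4A4 and SLC2A4 also missed an unadjusted p under 0.05 (limma p = 0.0651 and 0.0764). Over the alternatives on the log2 scale, the slope of SLC35A3 went down to 0.026 and that of SLC15A2 to 0.028. Drip loss itself correlated with the title number (r = -0.260) and with the actin control difference (r = 0.246), and with a spline of the title number in the model the smallest limma adjusted p of a member was 0.914.

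Transport proteins outside the symbol rule were not called either; some of them, such as the SLCO genes and the uncoupling proteins UCP2 and UCP3, are solute carriers by other names. Of a list of 53 ABC transporters, organic anion carriers named SLCO, channels, pumps and related proteins, 32 were measured, and 0 passed for fat area or drip loss by limma (smallest adjusted p 0.333 and 0.348). At an unadjusted p under 0.05, 3 of the 32 passed for fat area and 6 for drip loss, where 7.08% and 11% of all probe sets did.

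Co-variation was read in the 60 carriers above the median brightness with an SD over 0.25, which form 1770 pairs. By permutation, 374 pairs (21.1%) correlated positively and 289 (16.3%) negatively at an adjusted p under 0.05. No share of all probe-set pairs was taken at that threshold. A correlation of at least 0.3 in size was found in 16.2% of carrier pairs and in 31.1% of all probe-set pairs of the same filter. The correlation reached 0.5 in 1.92% of carrier pairs and in 8.07% of the 35908575 pairs of all 8475 probe sets of the same filter. The latter hold several probe sets of the same gene, and no test was made of the difference.

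Cargo class hardly ordered the correlations. The median r was 0.019 over 189 pairs of the same class and 0.007 over 1581 pairs of different classes. Mitochondrial carriers had a median of 0.084, with 73.3% of 45 pairs positive, against 51.9% of all carrier pairs. With 5 principal components of all probe sets taken out, the median was 0.009, with 55.6% of the pairs positive, and the median over all carrier pairs was 0.014. Metals, amino acids and vitamins had medians of -0.022, -0.015 and -0.020, sugars 0.027 and inorganic ions -0.042. The 15 pairs of Golgi and endoplasmic reticulum carriers ran from -0.553 to 0.867 around a median of -0.116, and the 45 pairs of metal carriers reached down to -0.581.

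SLC35A3 and SLC35F5, both members of the nucleotide sugar carrier family, formed the closest pair, r = 0.867 (rho = 0.866, adjusted permutation p = 0.000111), positive in 10 of 10 blocks. They stood with SLC30A5, which loads zinc into the secretory pathway, SLC38A9, the lysosomal amino acid sensor, and SLC15A2. SLC30A5 and SLC38A9 correlated at 0.655, SLC30A5 and SLC35A3 at 0.597, SLC15A2 and SLC35F5 at 0.581, and SLC35A3 and SLC38A9 at 0.567. These carriers also followed the array median, with r = 0.743 for SLC35A3, 0.710 for SLC30A5, 0.691 for SLC35F5, 0.626 for SLC38A9 and 0.376 for SLC15A2. With the averaged hepatocyte list they correlated at 0.770 for SLC35A3, 0.749 for SLC30A5, 0.667 for SLC35F5, 0.609 for SLC38A9 and 0.356 for SLC15A2, and the part of that list in these pairs was not tested. Within the list, APOB and CPS1 varied most over pigs (SD 0.624 and 0.312), and albumin and transferrin little (0.080 and 0.064). Correlations with its single genes were not taken. With the array median and the actin difference taken out, SLC35A3 and SLC35F5 kept r = 0.730, while SLC30A5 and SLC35A3 dropped to 0.147 and SLC35A3 and SLC38A9 to 0.202. With 5 principal components of all probe sets taken out, SLC35A3 and SLC35F5 had r = 0.313, SLC30A5 and SLC38A9 0.038, and SLC35A3 and SLC38A9 0.018, of which only the first still passed. In that setting SLC30A5 and SLC35A3 turned to -0.089 and SLC15A2 and SLC35F5 to -0.072. SLC35C2, a Golgi carrier tied to fucose, ran against them, at -0.553 with SLC35F5 and -0.505 with SLC35A3. SLC39A1, a zinc importer of the cell surface, ran against SLC30A5 at -0.581, and SLC46A2 did so at -0.486. With the 5 components out, SLC35C2 had r = -0.280 with SLC35F5 and 0.070 with SLC35A3, and SLC30A5 had -0.266 with SLC39A1 and -0.186 with SLC46A2. Of these, the values with SLC35A3 and SLC46A2 did not pass. The 3 SLC30A5 probe sets correlated with each other at r between -0.180 and 0.718, so the SLC30A5 values are those of 1 probe set. So are the SLC38A9 values, as its 2 probe sets correlated at r = -0.236.

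Other pairs moved less when the array measures, that is the array median and the actin difference, were taken out. SLC35B1, which exchanges ATP for ADP at the endoplasmic reticulum, correlated with SLC39A7, the zinc channel of the same membrane, at 0.650, and with SLC33A1, the acetyl-CoA carrier there, at 0.584. With the array measures out these were 0.629 and 0.670. SLC29A1 and the folate carrier SLC46A1 correlated at 0.595 (0.553 with them out). SLC25A1 and SLC25A11, which both move tricarboxylic acid cycle intermediates, correlated at 0.570 (0.512), and SLC39A1 and the sugar carrier SLC50A1 at 0.573 (0.503). SLC15A2 and SLC39A7 ran in opposite directions at -0.491. With the 5 components out, SLC39A1 and SLC50A1 had r = 0.167 and SLC15A2 and SLC39A7 -0.142, which did not pass. The other pairs named here passed in that setting. SLC33A1 and SLC35B1 had r = 0.592, the highest of all carrier pairs there. SLC25A1 and SLC25A11 had 0.544, SLC35B1 and SLC39A7 0.476, and SLC29A1 and SLC46A1 0.471. SLC29A1 and SLC46A1 also correlated with the median correlation of the array, at 0.543 and 0.512, and that measure was not taken out. Without the 13 arrays that stand apart, the r of SLC29A1 and SLC46A1 was 0.541.

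The strongest pairs of the remaining classes were weaker. SLC30A5 and SLC39A14 led the metals at 0.483, SLC3A2 and SLC7A1 the amino acids at 0.357, SLC2A1 and SLC45A2 the sugars at 0.342, SLC46A1 and SLC46A3 the vitamins at 0.312, and SLC12A4 and SLC8B1 the inorganic ions at 0.270. With the 5 components out these were 0.024, 0.283, 0.139, 0.211 and 0.025, and of them only that of the amino acids passed. SLC30A5 and SLC39A14 also correlated with the median correlation of the array, at -0.460 and -0.587. SLC22A5 and SLC22A8 led the organic ions at -0.112, which did not pass (adjusted permutation p = 0.282).

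Among pairs of carriers that work together in known routes, chosen after values had been seen, r ran from -0.213 to 0.477. SLC3A1 and its partner SLC7A9 had r = 0.013 (rho = -0.005). SLC3A2 and its light chain SLC7A7 correlated negatively, r = -0.213 (adjusted permutation p = 0.0284 over the 1770 pairs). SLC2A2 and SLC37A4 of glucose release had r = 0.182 (adjusted permutation p = 0.0646). SLC22A5 and SLC25A20 of the carnitine system had r = 0.049 (adjusted permutation p = 0.668). For SLC11A2 and SLC39A14 of iron uptake, r was -0.097 (adjusted permutation p = 0.366). Among the ATP synthesis carriers, SLC25A3 and SLC25A5 had r = 0.477, SLC25A5 and SLC25A6 0.311, and SLC25A4 and SLC25A6 0.055.

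**Figure D4:**
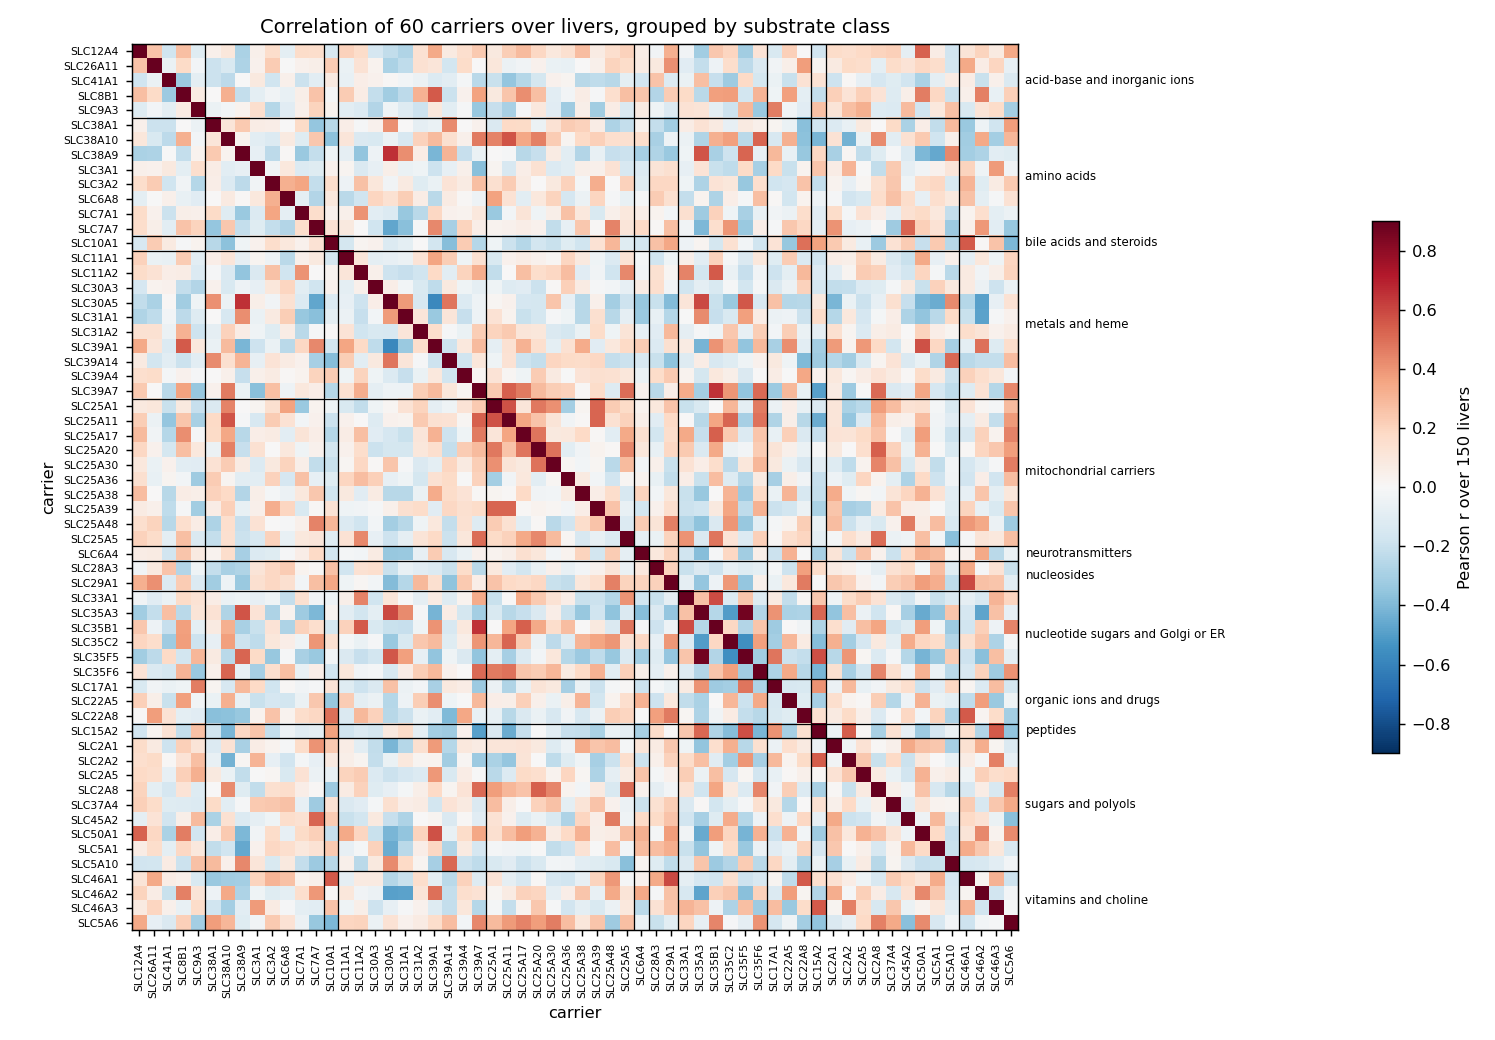
Pearson r over 150 livers between 60 carriers, ordered by cargo class along both axes; black lines part the classes and the colour scale runs from blue (negative) to red (positive). Blocks along the diagonal are not redder than the rest apart from parts of the mitochondrial block and the dark SLC35A3 and SLC35F5 cell at 0.867.

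Each carrier was set against 8 markers of liver state: CPT1A for fatty acid oxidation, SCD for fatty acid desaturation, CYP7A1 for bile acid synthesis, DBP for the circadian clock, MX1 for interferon, ASNS for amino acid shortage, HSPH1 for heat shock and HP for the acute phase. Of the 936 correlations, 97 (10.4%) were positive and 13.2% negative at an adjusted permutation p under 0.05. HSPH1 alone gave 15 of the positive and 32 of the negative ones. No share of all probe sets was taken at this threshold. Several carriers ranked among the closest of all 23998 other probe sets.

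CPT1A gates the entry of long-chain fatty acids into mitochondria. In all, 18 carriers (15.4%) reached a correlation of at least 0.3 in size with it, 14 positive and 4 negative, where 5.73% of all probe sets did. Here and for the other markers, carriers were read at their brightest probe set, while the share of all probe sets includes dim ones. Of the carriers, 67.5% lay above the median of all probe-set means. The shares were not matched for brightness, and no test was made of the differences. SLC25A30 followed CPT1A at r = 0.736 (rho = 0.756, adjusted permutation p = 0.000223). This was the 3rd highest r of 23998 probe sets and was positive in 10 of 10 blocks. SLC5A6 followed at 0.641, the 21st highest, and SLC25A20, which carries acylcarnitines in the same route as CPT1A, at 0.521. Without the arrays that stand apart these were 0.751, 0.640 and 0.518, and with the array measures out 0.742, 0.647 and 0.548. SLC5A6 also correlated at 0.552 with the macrophage list, whose part in that result was not tested.

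SCD, which makes oleate, ran the opposite way. With it 12 carriers (10.3%) reached 0.3 in size, where 3.39% of all probe sets did. SLC25A30 had r = -0.525 with it, negative in 10 of 10 blocks, and SLC5A6 r = -0.499. SLC10A1 correlated positively with SCD at r = 0.553, but its rho was 0.235. The 7 pigs with the lowest SLC10A1, from 10.06 to 11.64, had SCD between 7.66 and 9.21, where the median pig had 11.8. Without the 11 pigs with SCD below 10, a bound chosen after the values were seen, r was 0.142. These 7 livers also had CYP7A1 between 4.09 and 7.12, against a median of 8.42, and SLC5A6 between 10.09 and 10.98, against 9.40. Of the 7, 3 were on arrays that stand apart.

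CYP7A1 controls the rate at which bile acids are made from cholesterol. SLC10A1 correlated with it at r = 0.475 (rho = 0.319, adjusted permutation p = 0.000223) and at 0.279 without those 11 pigs. By block, that r was positive in 8 of 10, and the lowest was -0.319. With the median correlation of the array SLC10A1 correlated at 0.485, and the part of that measure was not tested. SLC15A2 correlated with CYP7A1 at 0.430 and SLC25A33 at -0.441. For CYP7A1, 17 carriers (14.5%) reached 0.3 in size, 13 of them negative, where 8.46% of all probe sets did.

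DBP is a transcription factor driven by the clock. SLC25A33 had r = -0.556 with it (rho = -0.573), the 5th lowest r of 23998 probe sets, negative in 10 of 10 blocks and -0.590 with the array measures out. SLC11A2 had r = -0.439, negative in 10 of 10 blocks, and SLC25A48 r = 0.465. SLC25A33 and SLC11A2 were each read at 1 probe set. The probe sets of either gene agreed poorly, at r = 0.127 for SLC25A33 and from -0.072 to 0.309 for SLC11A2. In all, 14 carriers (12.0%) reached 0.3 in size, where 6.61% of all probe sets did. The labels give no time of sampling.

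MX1, an interferon-induced gene, had few carriers with it: 3 carriers (2.56%) reached 0.3, where 2.66% of all probe sets did. Its highest r was that of SLC22A5, r = 0.656 (rho = 0.403, adjusted permutation p = 0.000223), positive in 10 of 10 blocks. In the 6 pigs with MX1 of 10.5 or more, SLC22A5 ran from 6.83 to 9.34, above the median of 6.02. Without them r was 0.378. SLC2A3, a glucose carrier of leukocytes and neurons, had r = 0.365 and SLC35F6 0.345, and without those 6 pigs 0.139 and 0.057.

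A single liver lay at the end of several of these relations. Pig 70, in accession order, had the lowest SLC10A1 (10.06), the highest SLC22A5 (9.34), the highest SLC25A33 (7.59), the lowest SCD (7.66), the lowest DBP (6.06) and the highest MX1 (13.07), with CYP7A1 at 4.26. Its array had the lowest median correlation with the others, 0.928. Without it, r was 0.475 for SLC10A1 and SCD, 0.585 for SLC22A5 and MX1 and -0.529 for SLC25A33 and DBP. For SLC10A1 and SLC22A5, r was -0.340 with it and -0.118 without.

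ASNS makes asparagine and rises when amino acids are short. With it, 7 carriers (5.98%) reached 0.3, where 2.71% of all probe sets did, led by SLC7A1, the arginine and lysine carrier, at 0.386, SLC35B1 at 0.368 and SLC11A2 at 0.362. The highest SLC7A1 value, 9.13, belonged to a pig with HSPH1 at 11.7, the highest of all. HSPH1 had 27 carriers (23.1%) past 0.3, close to the 26.3% of all probe sets. SLC35B3, SLC35A3 and SLC35F5 led at 0.573, 0.547 and 0.516, and at 0.371, 0.309 and 0.274 with the array measures out. HP varied little (SD 0.055) near the upper end of the scale, and no carrier reached 0.3 with it, where 0.304% of all probe sets did; SLC9A3, SLC34A2 and SLC1A6 came closest at -0.254, -0.210 and -0.203.

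**Figure D5:**
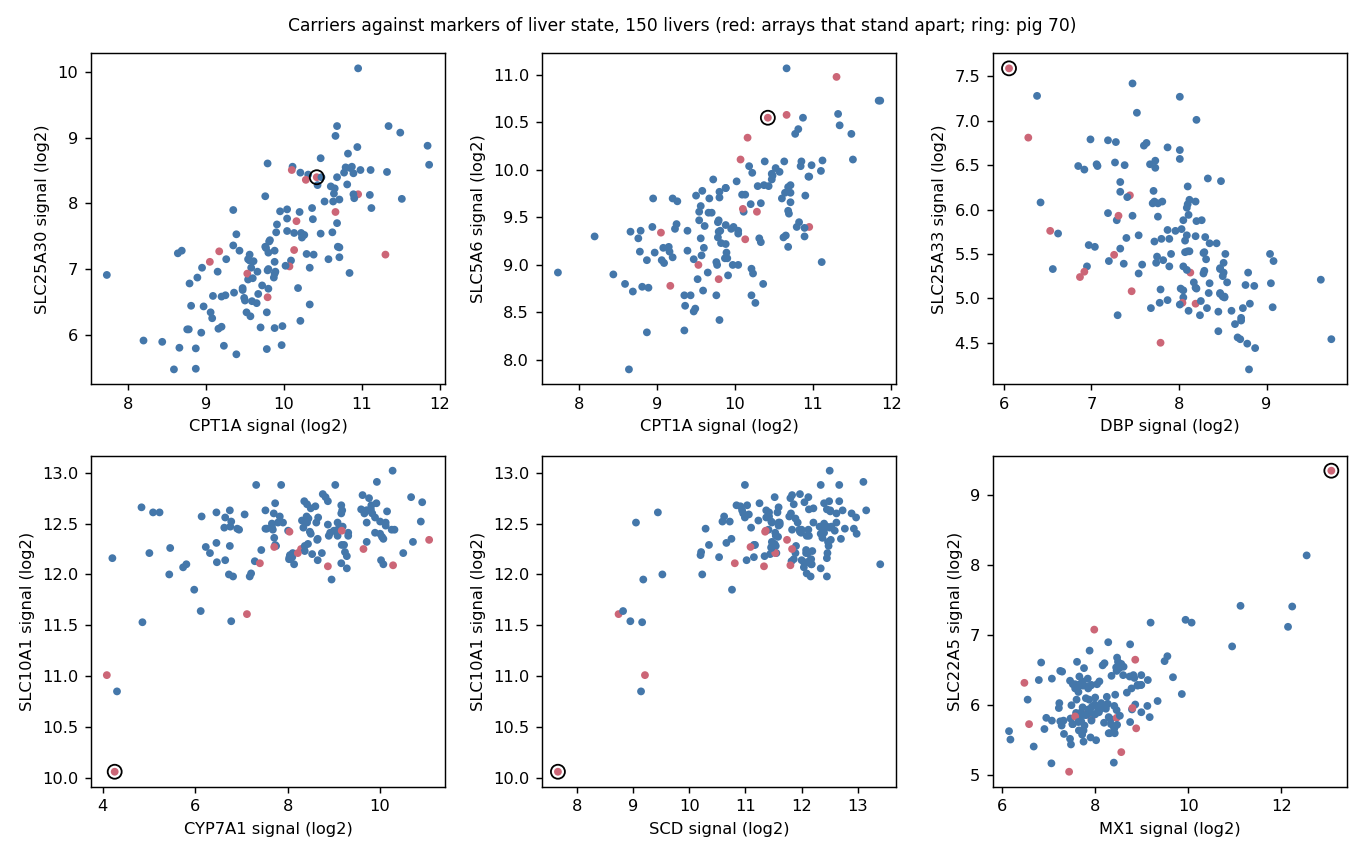
Signal (log2, y axes) of SLC25A30, SLC5A6, SLC25A33, SLC10A1 and SLC22A5 against the signal (log2, x axes) of liver state markers in 150 livers, 1 point per pig; red points are arrays that stand apart and the ring marks pig 70. SLC25A30 climbs with CPT1A along the whole range (r = 0.736), while SLC10A1 with SCD (r = 0.553) and SLC22A5 with MX1 (r = 0.656) have tails of few pigs.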

How the data were processed

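The authors deposited 1 signal per probe set and array, rounded to 2 decimals and on a log2 scale as judged by their range. Per the submitters' processing notes, GCOS 1.1.1 was used; how probes were summarised and arrays scaled is not given in the sources used here. Gene names came from the array annotation, matched by Entrez ID for all members but 2, with 0 changed. No build is named, so no coordinates are given.

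Slopes per trait SD were fitted over 23999 probe sets with limma 3.58.1 (R 4.3.3, eBayes with trend, no covariate), adjusted by Benjamini-Hochberg, and tested on simulated data. Correlations had two-sided tests of 100000 permutations, whose smallest p is 1e-05, adjusted over 1770 pairs or 936 marker correlations. An array stood apart when its median correlation lay over 3 MADs below the median. Members, classes and lists were chosen with earlier results of these data known. Carriers were named by brightness (top 5%), SD (15 largest), smallest p (5 per direction and trait), r (10 highest, 5 lowest, 1 per class; 3 per marker) and probe-set agreement (3 best, 3 worst); others, such as SLC2A2, SLC6A4, SLC5A1, SLC22A2 and SLC25A51, were chosen after their values were seen. The number of arrays limits the precision.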

Additional observations from a re-analysis of the deposited data

How the results depend on the processing

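No paired analysis was possible because all 150 pigs form a single group. For fat area, 1 member passed an adjusted p under 0.05 without flat probe sets (SLC25A33, adjusted p = 0.0498 in limma, with fewer probe sets tested) and 1 with 5 principal components as covariates (SLC5A6, 0.0317); 2 passed an adjusted p under 0.1. The other alternatives gave 0, as did every one for drip loss. With the Y-linked covariate the smallest adjusted p for fat area was 0.234, and over its alternatives SLC25A33 ranged from 0.0498 to 0.387 and SLC3A1 from 0.0507 to 0.374. With 5 principal components taken out, 9.66% of carrier pairs correlated positively and 5.65% negatively, against 21.1% and 16.3%; the cause was not tested. In that setting r turned to -0.089 for SLC30A5 and SLC35A3, -0.072 for SLC15A2 and SLC35F5, 0.070 for SLC35A3 and SLC35C2 and 0.084 for SLC22A5 and SLC22A8, the last also to 0.034 by Spearman's rho, an alternative chosen after seeing the data. Over all alternatives, 5 values of named carrier pairs reversed and 11 missed the threshold. Of carriers with markers, 4 values missed it and 2 came to pass it, and 1 slope on fat area came to pass it. Slopes on drip loss passed in no setting, so only a change of direction could register, and 0 changed direction. Their sizes did change, as for SLC35A3, from 0.026 to 0.099. All array values rest on signal over background, which limits dim probe sets near the floor.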
